A study of Mus musculus with 12 samples.

Results

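Homeostatic microglia genes are described here by 9 members, *P2ry12*, *P2ry13*, *Tmem119*, *Sall1*, *Siglech*, *Gpr34*, *Olfml3*, *Cx3cr1* and *Selenop*. They were chosen by name, with earlier results of these data known, and matched to their Ensembl identifiers among 49315 genes of the count table. All 9 passed the expression filter, as did 20290 genes in all. The counts come from bulk RNA-sequencing of brains taken 14 d after stroke from 6 mice transplanted with WT BM cells and 6 transplanted with *Tet2*-KO BM cells. The recipients of both groups were male CD45.1 Pep Boy mice with intact *Tet2*, 8 to 12 weeks old at transplantation, given 11 Gy in total with the head shielded. Of the transplanted marrow, 10% came from CD45.2 donors, which were *Tet2*-/- or *Tet2*+/+ and give the groups their names, and 90% came from CD45.1 *Tet2*+/+ donors in both groups. The right middle cerebral artery was occluded for 30 min, between 8 and 10 weeks after transplantation, and the study's text names both whole brains and hemispheres as the source of the RNA. For recovery at 14 d, the study's methods kept only mice with a neurological deficit score of at least 3 on day 3. The labels do not give the scores of the sequenced mice. As the recipients had intact *Tet2*, the resident microglia carried *Tet2* in both groups. The comparison asks whether the 9 genes differed in level in brain tissue when a part of the blood lineage lacked *Tet2*. The counts do not show which cells held the RNA. The treatment entry of the labels names control cells for every mouse, so the groups rest on the titles and genotype entries. *Tet2* itself averaged 131.7 ± 7.60 CPM in the WT group and 130.9 ± 7.79 CPM in the *Tet2*-KO group (SD, n = 6 each), which does not check the labels because most cells of the brain kept the gene.

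Microglia are the resident macrophages of the brain parenchyma. In the undisturbed brain they carry a set of surface receptors that sense nucleotides, lipids and neuronal ligands, together with an identity programme that depends on TGF-beta signalling and on the transcription factor SALL1. These homeostatic genes are known to be turned down in microglia that respond to injury, in which phagocytic and lipid-handling genes are turned up. In a whole brain, fewer microglia and less RNA per microglial cell give the same lower count and cannot be told apart.

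**Figure D1:**
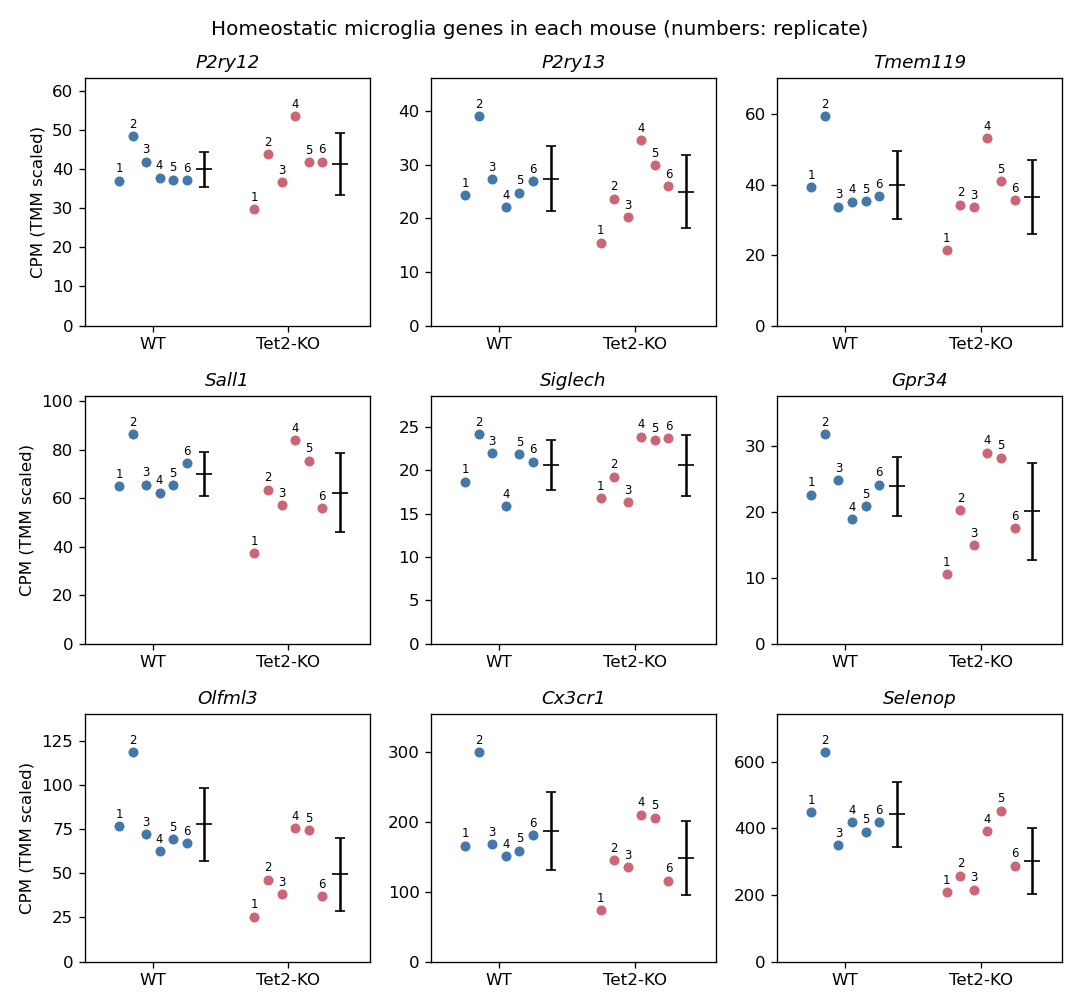
CPM (counts per library total after TMM) of each of the 9 genes in each mouse, with the replicate number beside each point; bars give the mean and SD of 6 mice per group, and every axis starts at 0. WT replicate 2 was the highest mouse in 8 genes, *Tet2*-KO replicate 1 the lowest in 8, and no gene separated the groups.

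Gene levels are in CPM, that is, read counts divided by the TMM-scaled size of each library, and differences are log2 fold changes of *Tet2*-KO over WT from edgeR's quasi-likelihood test with Benjamini-Hochberg adjustment over all tested genes. None of the 9 genes passed an adjusted p of 0.05, a threshold that 0.0246% of all tested genes passed (5 genes). Without adjustment, 2 of the 9, *Olfml3* and *Selenop*, had a p below 0.05 and were lower in the *Tet2*-KO group, against 12.2% of all tested genes, and 0 of the 9 were higher, against 10.8% of all tested genes. The fold change was below 0 in 8 of the 9 genes, and its median was -0.17 against 0.01 over all tested genes. In none of the 9 did the mice of one group all lie below or above those of the other. Of all tested genes, 1.09% were separated in that way, so that none of 9 lies close to that share. Libraries held between 12000261 and 21049763 counts, and the lowest count of any of the 9 genes in a mouse was 170, for *Gpr34*. The mice are the replicates. Per the study's methods, recipients of both kinds of marrow shared cages of littermates where that could be done, and the labels do not tie the sequenced mice to a cage.

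The ADP receptor *P2ry12*, which guides microglial processes towards injury, was at 37.0 CPM in the lowest WT mouse, 37.5 at the median and 48.3 in the highest. In the *Tet2*-KO group it was at 29.7 in the lowest mouse, 41.8 at the median and 53.5 in the highest. Of the 6 *Tet2*-KO mice, 2 lay below every WT mouse, 1 lay above and 3 lay between. The log2 fold change was 0.047 (95% interval -0.20 to 0.30, adjusted p = 0.849), so a fold between 0.868 and 1.23 is compatible with these mice. Its neighbour *P2ry13*, also an ADP receptor, had WT values from 22.1 to 39.1 CPM with a median of 25.9. The *Tet2*-KO values ran from 15.5 to 34.6 with a median of 24.9. Here 4 of 6 *Tet2*-KO mice lay within the WT range and the log2 fold change was -0.13 (95% interval -0.55 to 0.28, adjusted p = 0.719).

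*Gpr34*, a receptor for lysophosphatidylserine, was at 18.9 CPM in the lowest WT mouse, 23.3 at the median and 31.8 in the highest, and at 10.5, 18.9 and 29.0 CPM in the *Tet2*-KO group. The *Tet2*-KO mice spread more widely, with an SD of 7.35 CPM against 4.48 in the WT group, and 3 of them fell below the WT range. The log2 fold change was -0.25 (95% interval -0.76 to 0.26, adjusted p = 0.561). *Cx3cr1*, the receptor for the neuronal chemokine fractalkine, which circulating monocytes also carry, was at 150.9 CPM in the lowest WT mouse, 167.1 at the median and 300.2 in the highest. In the *Tet2*-KO group these were 74.0, 140.2 and 210.7 CPM. Of the *Tet2*-KO mice, 4 lay below the WT range and replicates 4 and 5 lay inside it, above every WT mouse other than replicate 2. The log2 fold change was -0.34 (95% interval -0.92 to 0.24, adjusted p = 0.471), and without WT replicate 2 it was -0.16.

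*Sall1*, the zinc finger factor that distinguishes microglia from other macrophages, was at 62.2 CPM in the lowest WT mouse, 65.4 at the median and 86.4 in the highest. The *Tet2*-KO mice ran from 37.4 through a median of 60.3 to 84.0 CPM, and 3 of 6 were below the WT range. The log2 fold change was -0.17 (95% interval -0.53 to 0.20, adjusted p = 0.595). *Tmem119*, a membrane protein that marks resident microglia and not infiltrating macrophages, was between 33.8 and 39.3 CPM in 5 WT mice and at 59.5 in WT replicate 2. The *Tet2*-KO values ran from 21.4 to 53.3 CPM with a median of 34.9. Its log2 fold change of -0.13 (95% interval -0.58 to 0.32, adjusted p = 0.754) moved to 0.02 without that WT mouse and to -0.01 without *Tet2*-KO replicate 1. Single mice also moved the uncalled values of other members. Without WT replicate 2 the log2 fold change was -0.01 for *P2ry13*, -0.15 for *Gpr34*, -0.09 for *Sall1* and -0.16 for *Cx3cr1*. Without *Tet2*-KO replicate 1 it was -0.03, -0.12, -0.05 and -0.20 for these 4 genes in that order. Without *Tet2*-KO replicate 4 the values lay farther from 0, at -0.26 for *P2ry13*, -0.39 for *Gpr34*, -0.27 for *Sall1* and -0.27 for *Tmem119*. *Siglech*, a sialic acid-binding lectin of microglia and plasmacytoid dendritic cells, gave the closest groups, with WT mice at 15.9 to 24.2 CPM (median 21.5) and *Tet2*-KO mice at 16.3 to 23.9 CPM (median 21.4). All 6 *Tet2*-KO mice lay within the WT range, and the log2 fold change was -0.003 (95% interval -0.26 to 0.25, adjusted p = 0.991). Upper quartile scaling moved it to 0.03.

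The lowest fold changes belonged to the 2 secreted proteins. *Olfml3*, an olfactomedin-like glycoprotein of the extracellular space, was at 62.7 CPM in the lowest WT mouse, 70.9 at the median and 118.8 in the highest, and at 25.5, 42.3 and 75.6 CPM in the *Tet2*-KO group. *Tet2*-KO replicates 1, 2, 3 and 6 lay between 25.5 and 46.5 CPM, below every WT mouse, while replicates 4 and 5 were at 75.6 and 74.4 CPM, above the WT median. The log2 fold change was -0.65 (95% interval -1.27 to -0.04), with an unadjusted edgeR p of 0.0388 that did not pass the adjustment (adjusted p = 0.194). An exact two-sided permutation test of the mice on log2 CPM gave p = 0.0411, where 0.00216 is the smallest p possible with 6 against 6. *Selenop*, the selenium carrier that tissues take up through the receptor LRP8, was at 349.6 CPM in the lowest WT mouse, 417.9 at the median and 628.9 in the highest, and at 208.5, 272.7 and 452.7 CPM in the *Tet2*-KO group. The same 4 *Tet2*-KO mice lay below the WT range, between 208.5 and 287.8 CPM, while replicate 4 was at 392.3 and replicate 5 at 452.7. Its log2 fold change was -0.55 (95% interval -1.02 to -0.08), with an unadjusted edgeR p of 0.0256 (adjusted p = 0.168) and an exact two-sided permutation p of 0.0346. For the other 7 genes the exact permutation p lay between 0.210 and 0.946.

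Whether *Olfml3* and *Selenop* passed a threshold varied with the test and with which mice were included. Limma-voom with sample quality weights, which gives less weight to mice that deviate, put *Olfml3* at an adjusted p of 0.0315 and *Selenop* at 0.0227, where it called 7.01% of all tested genes as lower. The DESeq2 Wald test put them at 0.160 and 0.0644, where it called 3.38% as lower. With edgeR and *Tet2*-KO replicate 5 left out, *Selenop* had an adjusted p of 0.0418 and *Olfml3* of 0.0877, in a fit that called 7.30% of all tested genes as lower. With each of the 12 mice left out in turn, the unadjusted p stayed below 0.05 in 5 fits for *Olfml3* and in 8 for *Selenop*. Both fell short of it without WT replicate 2, at 0.102 and 0.0713. They also fell short without *Tet2*-KO replicate 1 (0.0623 and 0.0512), replicate 2 (0.0661 and 0.0517) or replicate 3 (0.0763 and 0.0516), and *Olfml3* also without WT replicate 1 (0.0561), WT replicate 3 (0.0506) or *Tet2*-KO replicate 6 (0.0758). Their fold changes stayed below 0 in all 12 of these fits, between -0.82 and -0.49 for *Olfml3* and between -0.70 and -0.42 for *Selenop*.

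**Figure D2:**
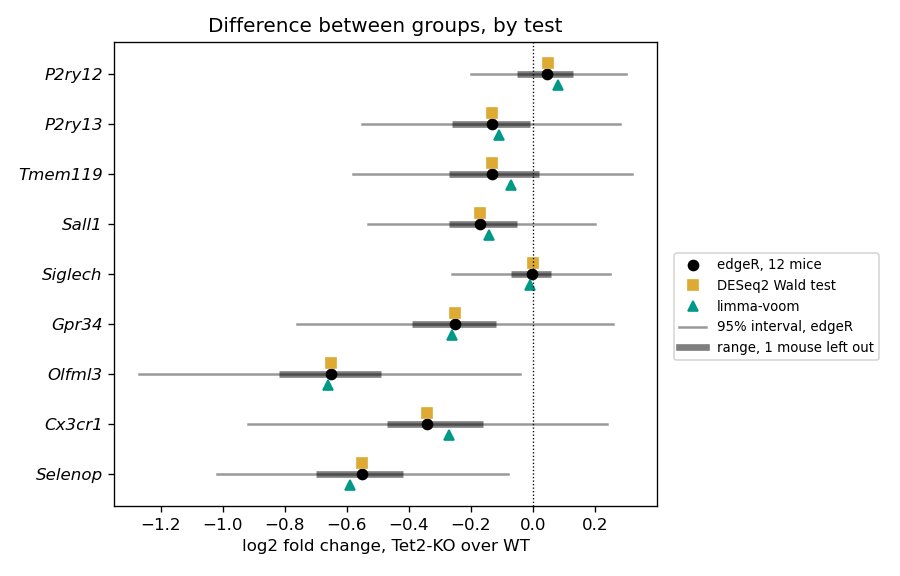
Log2 fold change of *Tet2*-KO over WT for each gene by edgeR (black point, with its 95% interval as a thin line and the range over the 12 fits with 1 mouse left out as a thick line), the DESeq2 Wald test (square) and limma-voom with sample quality weights (triangle). The edgeR interval ends below 0 for *Olfml3* and *Selenop*, whose adjusted p values were 0.194 and 0.168.

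Per kilobase of annotated exon, which allows levels of different genes to be compared, *Selenop* stood highest in WT mice at 155.6 ± 34.3 CPM per kb (SD, n = 6). *Cx3cr1* followed at 41.6 ± 12.4 (SD, n = 6), and the ranges of these genes did not overlap with each other or with the next. *Tmem119* (17.3 ± 4.21), *P2ry12* (15.7 ± 1.78), *Sall1* (13.3 ± 1.74), *Olfml3* (12.6 ± 3.35), *Gpr34* (11.4 ± 2.14) and *P2ry13* (10.9 ± 2.38) came next, and each overlapped in range with its neighbour in that order. *Siglech* was lowest at 6.10 ± 0.866 CPM per kb (SD, n = 6), with its highest WT mouse at 7.17 and the lowest value of *P2ry13* at 8.74. In *Tet2*-KO mice *Selenop* was at 106.4 ± 34.9 CPM per kb (SD, n = 6), *Cx3cr1* at 32.8 ± 11.8 and *Olfml3* at 8.03 ± 3.38. These lengths are of all annotated exons together, and for *Olfml3* the 6161 bases include a long exon of a single transcript, so its level per kb is the least certain.

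Because *P2ry12* had a similar median in both groups, the level per kb of each gene was also set against that of *P2ry12* in the same mouse, as a description chosen after its values were seen and given no test. *Selenop* stood at 9.89 ± 1.43 times the level per kb of *P2ry12* (SD, n = 6) in WT mice and at 6.55 ± 1.64 times (SD, n = 6) in *Tet2*-KO mice. Of the *Tet2*-KO mice, 5 lay between 5.27 and 6.56, below the lowest WT mouse at 7.48, and replicate 5 was at 9.72. For *Olfml3* the ratio was 0.798 ± 0.122 (SD, n = 6) against 0.485 ± 0.148 (SD, n = 6), again with 5 *Tet2*-KO mice below every WT mouse and replicate 5, at 0.736, within the WT range. *Cx3cr1* also had 5 *Tet2*-KO mice below the WT range, at 1.41 to 2.22 against 2.26 or more, with replicate 5 at 2.79. *Tet2*-KO replicate 4 lay below every WT mouse in these 3 ratios, its *P2ry12* being the highest of all mice. For *Siglech* the ratio was 0.390 ± 0.0443 against 0.380 ± 0.0497 (SD, n = 6 each) and no *Tet2*-KO mouse left the WT range. The other genes lay between these, with 4 *Tet2*-KO mice below the WT range and 1 above it for *Gpr34*, 4 below for *Sall1*, 3 below for *P2ry13* and 2 below for *Tmem119*.

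**Figure D3:**
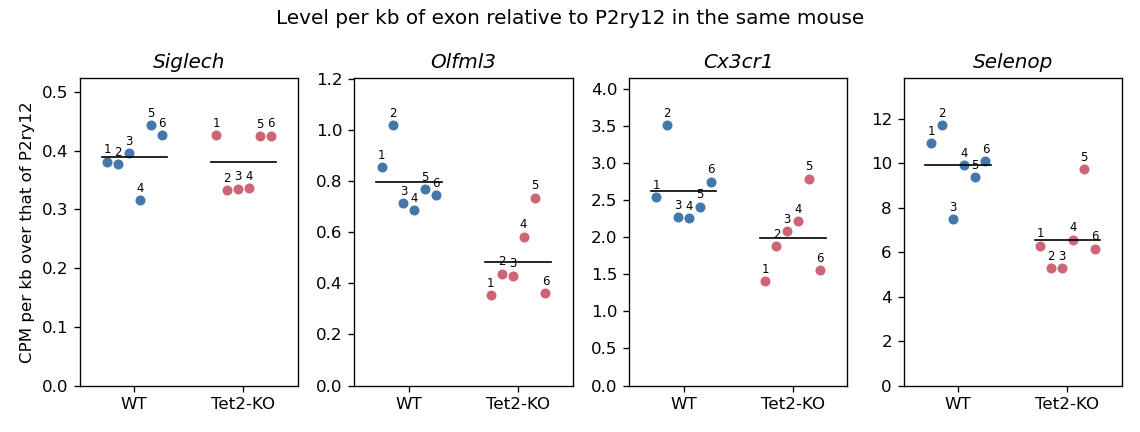
Level per kb of exon of 4 genes divided by that of *P2ry12* in the same mouse, with the replicate number beside each point and the group mean as a line. For *Olfml3*, *Cx3cr1* and *Selenop* 5 of 6 *Tet2*-KO mice lie below every WT mouse, and for *Siglech* none does. The 4 genes not drawn have between 2 and 4 *Tet2*-KO mice below the WT range.

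The 9 genes varied together from mouse to mouse. After the group means were subtracted from log2 CPM, Pearson's r over the 12 mice lay between 0.64 and 0.97 for the 36 pairs, with a median of 0.88, and Spearman's rho between 0.50 and 0.97 with a median of 0.70. All pairs share the library of each mouse, and 2 mice carried part of the likeness. Without WT replicate 2 and *Tet2*-KO replicate 1, the median r over 10 mice was 0.77 and the lowest 0.42. The highest r was 0.97, between *Sall1* and *Cx3cr1* (rho 0.97) and between *Olfml3* and *Cx3cr1* (rho 0.86). *Siglech* followed the others least, with r between 0.64 and 0.85, and was closest to *P2ry13* (r = 0.85). Each of the other eight had an r of 0.87 or more with the mean of the rest, highest for *P2ry13*, *Gpr34* and *Olfml3* at 0.97.

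Averaged over the 9 genes on the log2 CPM scale, the mice ran from 4.96 in *Tet2*-KO replicate 1 to 6.36 in WT replicate 2. *Tet2*-KO replicates 4 and 5, at 6.11 and 6.00, came next to WT replicate 2 and above the other five WT mice, which lay between 5.67 and 5.85. *Tet2*-KO replicates 2, 6, 3 and 1 held the last places at 5.61, 5.56, 5.39 and 4.96. The *Tet2*-KO group thus held mice from both ends of the order, and its SD was the larger one in CPM for every gene other than *Cx3cr1*, where it was 52.9 against 56.1.

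**Figure D4:**
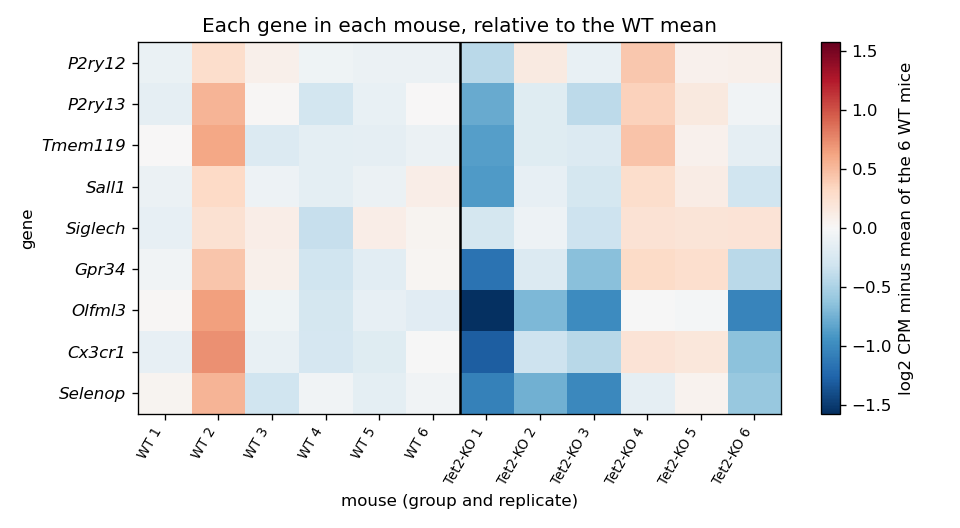
Log2 CPM of each gene (rows) in each mouse (columns) minus the mean of the 6 WT mice; red is higher and blue lower, and the line separates the groups. *Tet2*-KO replicate 1 is the lowest column in 8 genes. *Olfml3*, *Cx3cr1* and *Selenop* are also below every WT mouse in *Tet2*-KO replicates 2, 3 and 6, and *Sall1* and *Gpr34* in replicates 3 and 6.

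Over all tested genes, those whose level followed the mean of the 9 most closely within groups, by Pearson's r over the 12 mice, included *Tmem98* (r = 0.987), *Cxcl1* (r = 0.983), *Il13ra1* (r = 0.982) and *Slc44a1* (r = 0.977). *Cxcl1*, a neutrophil-attracting chemokine, was at 1.80 ± 0.934 and 0.275 ± 0.249 CPM (SD, n = 6 each), a log2 fold change of -2.66 by edgeR (adjusted p = 0.0816). *Slc44a1*, a choline transporter, followed the 9 genes among mice and yet lay close between the groups (log2 fold change -0.05, edgeR adjusted p = 0.786). *Tmem98* had a log2 fold change of -0.25 by edgeR (adjusted p = 0.318) and *Il13ra1*, a subunit of the receptor for interleukins 4 and 13, of -0.53 (adjusted p = 0.161). The mean of the 5 neuronal genes moved the other way within groups, with r = -0.88 over the 12 mice.

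Further genes of the pathways around the members were taken as lists, with 0 of their genes past the adjusted edgeR threshold. Of all tested genes, 12.2% were lower and 10.8% higher at an unadjusted edgeR p below 0.05. The same shares apply to the counts of the lists that follow. These lists were chosen with earlier results of these data known, so their counts are a description. Of 10 other microglia genes, 3 were lower with a p below 0.05 before adjustment and 0 were higher, with a median log2 fold change of -0.51. They included *Bin2*, a membrane-curving protein of leukocytes (-0.80, adjusted p = 0.135), and *Fcrls*, an Fc receptor-like gene of microglia (-0.75, adjusted p = 0.193). Of 11 pan-myeloid genes, which microglia share with blood-derived cells, 9 were lower at that threshold, with a median of -0.86. They included *Ptprc*, which encodes CD45 (-1.16, adjusted p = 0.138), and *Aif1*, which encodes IBA1 (-0.70, adjusted p = 0.154). The 9 homeostatic genes thus had a median of -0.17 beside -0.51 and -0.86 in these lists, a difference that was not tested. Of 12 identity factors and TGF-beta genes, 6 were lower and 2 higher with a p below 0.05 before adjustment, among them *Nrros*, which presents latent TGF-beta on microglia (-1.0, adjusted p = 0.124), and *Mef2c*, a factor that neurons also express (0.26, adjusted p = 0.124).

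The ligands and partners gave 4 of 11 genes lower and 0 higher with a p below 0.05 before adjustment, with a median of 0.01. *Cx3cl1*, the neuronal ligand of *Cx3cr1*, was at 475.0 ± 52.9 against 545.2 ± 76.2 CPM (SD, n = 6 each), and its log2 fold change of 0.20 had an adjusted p of 0.223 by edgeR. *Lrp8*, the receptor for *Selenop*, was at 103.4 ± 7.39 against 107.4 ± 8.51 CPM (SD, n = 6 each), and its log2 fold change of 0.056 had an adjusted p of 0.623 by edgeR. *Csf1*, a ligand of the receptor that microglia need to survive, was at -0.63 (adjusted p = 0.173), and *Kcnk13*, the potassium channel of ramified microglia, at -0.31 (adjusted p = 0.153). The genes that surround *P2ry12* and *P2ry13* on chromosome 3 gave log2 fold changes of 0.013 for *P2ry14* (adjusted p = 0.926), -0.076 for *Gpr171* (adjusted p = 0.796) and 0.10 for *Med12l* (adjusted p = 0.227), the first of which changed sign with limma-voom, to -0.004.

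Lists of other genes were set beside the homeostatic genes in the same mice. Within groups, Pearson's r over the 12 mice with the mean of the 9 genes was highest for the other microglia genes, at 0.96. For pan-myeloid genes and for identity factors and TGF-beta genes it was 0.93 each. For activation genes it was 0.92, for border macrophage genes 0.83 and for monocyte genes 0.77. It was 0.87 for fibroblast and mural genes, 0.84 for astrocyte genes, 0.77 for oligodendrocyte genes, 0.76 for endothelial genes and -0.88 for neuronal genes, so that the likeness was not particular to myeloid lists, and all lists share the library of each mouse. Spearman's rho with the mean of the 9 genes was 0.81 for other microglia genes, 0.55 for pan-myeloid genes and 0.63 for identity factors and TGF-beta genes. For activation genes it was 0.68, for border macrophage genes 0.48 and for monocyte genes 0.41. It was 0.50 for fibroblast and mural genes, 0.71 for astrocyte and endothelial genes, 0.85 for oligodendrocyte genes and -0.85 for neuronal genes. The summed level of 13 activation genes, which responding microglia and other phagocytes turn up, lay between 4066 and 9036 CPM in WT mice and between 1217 and 4970 CPM in *Tet2*-KO mice, 12 of the 13 being lower at an unadjusted p below 0.05. These include *Lgals3* (-1.95, adjusted p = 0.132) and *Ctsb* (-0.80, adjusted p = 0.133). *Apoe* (-0.98, adjusted p = 0.145) gave the largest part of the activation sum in every mouse, and *Ctsb* the next largest. *Apoe* was at 1916.7 to 4542.1 CPM in WT mice and 649.2 to 2245.6 CPM in *Tet2*-KO mice. The 6 monocyte genes summed to between 344.8 and 928.8 CPM in WT mice and to between 24.6 and 456.7 CPM in *Tet2*-KO mice, with all 6 lower at that threshold, *Plac8* (-1.91, adjusted p = 0.123) and *S100a4* (-1.28, adjusted p = 0.124) among them. *Lyz2*, the lysozyme gene of monocytes, macrophages and neutrophils, made up between 90.5% and 97.1% of that sum in each mouse, at 320.9 to 876.8 CPM in WT mice and 23.3 to 422.7 CPM in *Tet2*-KO mice (-1.78, adjusted p = 0.146). The 5 other monocyte genes summed to between 24.0 and 52.1 CPM and to between 1.3 and 34.0 CPM, again with 5 *Tet2*-KO mice below every WT mouse. The 7 border macrophage genes, of which 4 were lower, summed to between 48.0 and 84.4 CPM and to between 14.8 and 59.4 CPM, with *F13a1* (-1.0, adjusted p = 0.121) and *Mrc1* (-0.95, adjusted p = 0.137) having the smallest p, and *Lyve1* (0.22, adjusted p = 0.668) and *Cd163* (0.041, adjusted p = 0.896) having values above 0. In the summed level of each of the activation, monocyte and border macrophage lists 5 of 6 *Tet2*-KO mice lay below every WT mouse and replicate 5 did not. *Tet2*-KO replicate 4 combined 956.9 CPM over the 9 homeostatic genes, below only WT replicate 2 and *Tet2*-KO replicate 5, with 196.7 CPM over the monocyte genes, below every WT mouse, of which *Lyz2* gave 186.0 CPM. Of the homeostatic sum in that mouse, *Selenop* gave 392.3 and *Cx3cr1* 210.7 CPM. These 2 genes gave the largest parts of that sum in every mouse. No gene of the activation, monocyte or border macrophage lists was at 0 in any mouse. The part of the cells these lists mark in the levels of *Olfml3* and *Selenop* was not tested.

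**Figure D5:**
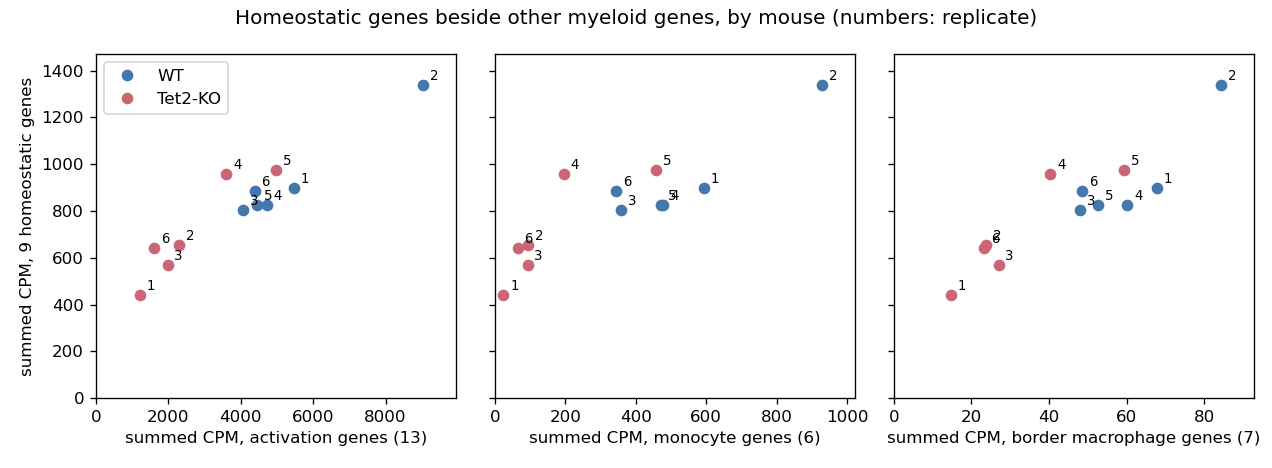
Summed CPM of the 9 homeostatic genes (vertical) in each mouse against the summed CPM of 13 activation genes, 6 monocyte genes and 7 border macrophage genes (horizontal), with replicate numbers. WT replicate 2 is highest and *Tet2*-KO replicate 1 lowest on all 4 sums, and *Tet2*-KO replicate 4 is among the 3 highest mice for the homeostatic genes and below every WT mouse on the other sums. The largest parts are *Selenop* and *Cx3cr1* in the homeostatic sum, *Apoe* in the activation sum and *Lyz2* in the monocyte sum.

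Markers of further cells are given for the same mice. Of 3 tested neutrophil genes (of 4), all 3 were lower at an unadjusted p below 0.05 and 2, *S100a9* (-2.84) and *S100a8* (-2.16), passed the adjusted threshold (adjusted p = 0.0364 each), from summed levels of at most 17.9 CPM in any mouse. With 1 mouse left out, *S100a9* lost its call in 8 and *S100a8* in 9 of 12 fits, and with a replicate block their adjusted p values were 0.168 and 0.144. T cell genes were low throughout, at 4.81 to 12.4 CPM in sum, with 3 of 3 tested genes lower, including *Cd3e* (-1.32, adjusted p = 0.128) and *Cd8a* (-1.02, adjusted p = 0.137). The 4 genes of plasmacytoid dendritic cells, the other carriers of *Siglech*, summed to no more than 12.1 CPM in any mouse, and neither of the 2 tested ones, *Ccr9* (-0.39, adjusted p = 0.271) and *Cox6a2* (-0.15, adjusted p = 0.588), had a p below 0.05. All 5 neuronal genes were higher at an unadjusted p below 0.05 with a median of 0.28, *Rbfox3* (0.31, adjusted p = 0.121) and *Syt1* (0.28, adjusted p = 0.142) having the smallest p. All 5 fibroblast and mural genes were lower with a median of -1.30, led by *Dcn* (-1.30, adjusted p = 0.121) and *Pdgfrb* (-0.58, adjusted p = 0.128). Median log2 fold changes were 0.05 for astrocyte genes (1 of 5 higher at an unadjusted p below 0.05), 0.03 for oligodendrocyte genes (0 of 5) and -0.02 for endothelial genes (1 of 5 lower). The part of these shifts in the levels of the homeostatic genes was not tested.

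In the genome (mm10, with GENCODE M21 gene models), *P2ry12* (chr3:59216272-59262871) and *P2ry13* (chr3:59207892-59210882) lie side by side on the minus strand inside the span of *Med12l*, which runs the other way and shares 9 exonic bases with *P2ry12* and 0 with *P2ry13*. *Olfml3* is at chr3:103722222-103738001, *Tmem119* at chr5:113793729-113800516, *Siglech* at chr7:55768178-55778925, *Sall1* at chr8:89027235-89044162, *Cx3cr1* at chr9:119901616-120069879, *Selenop* at chr15:3268547-3280508 and *Gpr34* at chrX:13632089-13640858. *Selenop* shares 439 exonic bases, 15.4% of its exons, with *Ccdc152* on the opposite strand, and the strand used in counting is not stated. *Ccdc152* had 247 counts over all 12 mice, against at least 3203 counts of *Selenop* in every single mouse. *Cx3cr1* shares 78 exonic bases with the antisense gene *Gm33858*, which had 335 counts in all.

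Since the 9 genes moved together among mice, the 250 bases before the start of each were read from RefSeq (GRCm38.p6), where 7 of the 9 have at least 1 start, and searched on both strands for GAGGAA, the core bound by the myeloid factor PU.1, a motif chosen after the levels were known. It was found before *P2ry13* and *Selenop* and not before any start of *P2ry12*, *Sall1*, *Siglech*, *Olfml3* or *Cx3cr1*. By window, 3 of the 11 windows of these genes hold it, against 23.3% of all 32851 such windows. Of the 3 windows of *Selenop*, 2 hold it, and these 2 overlap. The windows of *P2ry13*, *Selenop* and *Olfml3* are shown, 5′ to 3′ on the strand of the gene with the core (or its reverse complement TTCCTC) in capitals, because *P2ry13* and *Selenop* hold the core while *Olfml3*, the member with the lowest fold change, does not.
*P2ry13*, minus strand, chr3:59210883-59211132: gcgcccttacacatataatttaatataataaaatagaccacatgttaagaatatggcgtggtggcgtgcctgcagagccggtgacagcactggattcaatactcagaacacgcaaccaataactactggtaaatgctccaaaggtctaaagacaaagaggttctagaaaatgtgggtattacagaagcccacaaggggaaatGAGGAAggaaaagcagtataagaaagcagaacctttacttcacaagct
*Selenop*, plus strand, first of 3 starts, chr15:3270517-3270766: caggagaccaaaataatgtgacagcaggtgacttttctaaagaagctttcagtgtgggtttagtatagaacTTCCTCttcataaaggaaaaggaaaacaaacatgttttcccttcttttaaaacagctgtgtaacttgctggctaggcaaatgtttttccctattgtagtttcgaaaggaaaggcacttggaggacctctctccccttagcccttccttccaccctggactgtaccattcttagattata
*Olfml3*, minus strand, chr3:103738002-103738251: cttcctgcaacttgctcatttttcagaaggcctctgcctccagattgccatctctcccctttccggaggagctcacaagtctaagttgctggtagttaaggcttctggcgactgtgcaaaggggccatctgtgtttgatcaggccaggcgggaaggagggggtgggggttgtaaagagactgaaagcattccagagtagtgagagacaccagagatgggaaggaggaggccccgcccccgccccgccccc
A match of these letters is a description of the window, and *Olfml3* and *Selenop*, which had the lowest fold changes, do not share it.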

How the data were processed

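Bulk RNA-sequencing libraries of 12 brains, 6 per group, were depleted of ribosomal RNA and sequenced as paired reads. Per the labels' processing notes, which give tools without their roles or order, the authors used Trimmomatic 0.36, STAR 2.5.2b and featureCounts of Subread 1.5.2 with the build mm10, and they deposited raw counts per gene, with no normalization. Samples were grouped by title and genotype.

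From these counts, genes were kept with filterByExpr, scaled with TMM and tested with the robust quasi-likelihood F test of edgeR 4.0.16 in R 4.3.3 (12 mice, no covariates), with Benjamini-Hochberg adjustment over 20290 genes and a threshold of 0.05. Standard errors and 95% intervals follow from the F statistic, and log2 CPM used a prior count of 2. Each member was also compared by an exact two-sided permutation test. Alternatives were the Wald test of DESeq2 1.42.0, limma-voom (limma 3.58.1) with sample weights, scaling by upper quartile or by the size factors of DESeq2, no filter, at least 10 counts in every library, a replicate block and each mouse left out. The scripts were tested on simulated counts. Symbols and exon lengths came from GENCODE M21, and promoter windows from RefSeq.

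*Apoe* and *Lyz2* are named as the largest parts of a summed level. The other genes named include the 9 members, *Tet2*, the partners of members, the genes of each list past the threshold or else the 2 with the smallest p, and the 5 genes most like the members. The values of 1 of these 5 are not reported here. Members and lists were chosen with earlier results of these data known.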

Additional observations from a re-analysis of the deposited data

Results flagged for a closer look

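In 5 of the 9 genes, WT replicate 2 stood apart from the other five WT mice by more than Dixon's criterion for 6 values (a gap above 0.625 of the group's range), out of 18 gene and group combinations examined. Its level was 39.1 CPM for *P2ry13* (gap 0.695 of the range), 59.5 CPM for *Tmem119* (0.786), 118.8 CPM for *Olfml3* (0.754), 300.2 CPM for *Cx3cr1* (0.801) and 628.9 CPM for *Selenop* (0.645). Chance flags about 1 group in 20, and the genes of a mouse share its library, so these are not independent. No mouse of the *Tet2*-KO group met the criterion in any of the 9 genes. WT replicate 2 was also highest in the summed activation (9036 CPM), monocyte (928.8 CPM) and border macrophage genes (84.4 CPM), and lowest in the neuronal genes (2409 CPM).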

How the results depend on the processing

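Among the 9 genes, the number past the adjusted threshold was 0 in every alternative other than limma-voom, where it was 2 (*Olfml3* and *Selenop*), and with 1 mouse left out, where it ranged from 0 to 1 (*Selenop*, without *Tet2*-KO replicate 5). The number lower at an unadjusted p below 0.05 ranged from 0 to 2 with 1 mouse left out, and that of higher genes stayed at 0. The median log2 fold change of the 9 was lowest without *Tet2*-KO replicate 4, at -0.27, and highest without *Tet2*-KO replicate 1, at -0.05. Over all genes, the number past the adjusted threshold, 5 with edgeR, was 902 with the DESeq2 Wald test, 2013 with limma-voom, 44 with no filter on low counts, 0 with at least 10 counts in every library, and from 0 to 2257 (without *Tet2*-KO replicate 5) with 1 mouse left out, and the cause was not tested.

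With a replicate block, that is, mice paired by their number, 0 genes passed the adjusted threshold, with 4329 at an unadjusted p below 0.05, and *Olfml3* and *Selenop* had adjusted p values of 0.224 and 0.192. The labels do not say that a number marks a shared litter or day, and the number was not taken as a pairing. After each gene's group mean was subtracted from log2 CPM, same-numbered mice correlated over all tested genes at -0.17 to 0.23. Values for mice of different numbers are not given, so this range does not test a pairing.

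The sign of small fold changes was not stable. With 1 mouse left out, *P2ry12* ranged from -0.047 to 0.127, *Tmem119* from -0.274 to 0.02, *Siglech* from -0.069 to 0.056, *Tet2* from -0.027 to 0.024, *P2ry14* from -0.018 to 0.043 and *Gpr171* from -0.154 to 0.006. Upper quartile scaling gave 0.03 for *Siglech* and 0.022 for *Tet2*, and limma-voom -0.004 for *P2ry14*. Medians ranged from -0.02 to 0.04 for the ligands and partners, from -0.04 to 0.09 for oligodendrocyte genes and from -0.06 to 0.01 for endothelial genes, the last being 0.02 with upper quartile scaling. Within groups, the median correlation of the 9 genes was 0.88 by Pearson and 0.70 by Spearman, 0.77 without WT replicate 2 and *Tet2*-KO replicate 1 (chosen after seeing the data), and between 0.83 and 0.92 with 1 mouse left out. *S100a8* and *S100a9* lost their calls under the block (adjusted p 0.144 and 0.168) and in 9 and 8 of the 12 fits with 1 mouse left out.

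The 9 genes had at least 170 counts each in every mouse, and their intervals hold the spread between mice as well as counting error. That of *Gpr34*, for example, ran from -0.76 to 0.26.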
